A study of Bos taurus with 15 samples.

Results

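The regions described here are stretches of the cattle genome that are rich in CpG sites and nevertheless methylated in the mammary gland. Chromosomes 1 to 29 were divided into bins of 1 kb, and a bin was called dense when the 6 heifer libraries together read at least 60 distinct cytosine positions in it. The methylation level of a position is the percent of its read calls that were methylated. It was averaged over the heifers that read the position and then over the positions of the bin, and dense bins at 70% or more were taken as methylated dense bins. The members were thus chosen by the number of positions read and the mammary level. Of 2199357 bins read in any heifer, 40710 were dense and 22824 of these (56.1%) were methylated, while the other 17886 dense bins lay below 70%.

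The study asked whether heat stress of a pregnant cow leaves a mark on the DNA methylation of her offspring, and it used reduced representation bisulfite sequencing (RRBS) of Holstein cattle. Dams were given shade, fans and soakers (cooled, CL) or shade alone (heat stressed, HT) over the last 6 to 7 weeks of pregnancy. Liver was taken at birth from bull calves that were in utero cooled (IUCL-B, n = 5) or in utero heat stressed (IUHT-B, n = 4). Mammary gland was taken at day 21 of the first lactation from heifers that were in utero cooled (IUCL-H, n = 3) or in utero heat stressed (IUHT-H, n = 3), and these heifers had been kept alike since birth. The numbers count the libraries analysed here. Tissue, sex and age therefore changed together between calves and heifers and cannot be told apart. In the paper, some bull calves were also born a year later than the heifers. Each sample is 1 animal, and both tissues are mixtures of cell types.

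In mammals most CpG sites are methylated, and methylated cytosine mutates readily to thymine, so that CpG sites are scarce over most of the genome. CpG islands are the exception: these dense stretches, many of them at promoters, are usually kept free of methylation. Dense stretches that do carry methylation are known from inside genes, from repeats, from the promoters of germline genes in body tissues and from regions near chromosome ends. RRBS cuts DNA at recognition sites that contain CpG and so reads such regions preferentially.

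The 6 heifer libraries were alike in width, with 7552567 to 9753540 positions and 13949097 to 20240625 calls each. Calf libraries held 10484911 to 38221835 calls on fewer positions, so library width changed together with tissue. IUCL-B calves 4 and 5 stood apart with 3289592 and 5958861 positions, against 307023 to 1052206 in the other 7 calves. Values without these calves stand beside the liver levels, the mean differences and the numbers of called bins and cytosines, and the other liver values are from all calves. Positions on the opposite strands of a CpG were listed separately. Directly neighbouring positions were joined, and the median methylated dense bin then held 42 groups of positions, against 52 in the other dense bins. A group can hold several adjoining CpGs, so these numbers are not counts of CpGs. Pairs of direct neighbours numbered 77.9% of these groups in methylated dense bins and 54.2% in other dense bins. Methylated bins thus reached the position threshold with fewer groups, and the share of CpGs read on both strands was not computed.

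Dense bins fell into a methylated and an unmethylated class with few in between. Levels below 20% were found in 29.5% of dense bins and levels from 20% to 70% in 14.4%. Among methylated dense bins, 4564 lay from 70% to 80%, 10489 from 80% to 90% and 7771 at 90% or above, with a median of 87.3%. The methylated bins held a median of 74 positions and at most 240. The methylated share fell as density rose, from 62.2% of dense bins with 60 to 69 positions to 38.0% of those with 160 or more. Within the methylated class the median level went the other way, from 86.4% to 91.5% over the same density classes. These levels chose the bins and are given as a description.

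**Figure D1:**
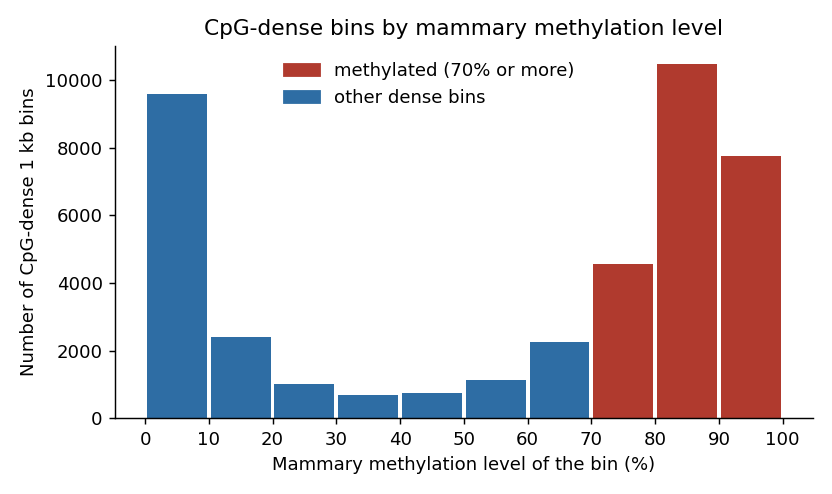
Number of CpG-dense 1 kb bins (vertical axis) by their mammary methylation level in percent (horizontal axis, classes of 10 points), with methylated dense bins in red and the other dense bins in blue. The classes from 0% to 10% (9603 bins) and from 80% to 90% (10489 bins) are the tallest, and the class from 30% to 40% (697 bins) is the smallest.

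At the edge of the rule, the bins nearest the level threshold were chr14:68169000-68169999 (70.004%) and chr22:59412000-59412999 (70.010%) inside it. The nearest outside were chr17:69473000-69473999 (69.999%) and chr6:106754000-106754999 (69.998%). In liver the first pair stood at 91.1% and 86.3% and the second pair at 61.5% and 92.5%. The density threshold also cut through a continuum, since 1074 methylated bins held exactly 60 positions and 1121 bins with 59 positions had a level of 70% or more. The first bins on either side in genome order were chr1:1709000-1709999 and chr1:44870000-44870999 (79.7% and 91.9%) with 60 positions and chr1:2420000-2420999 and chr1:2437000-2437999 (92.4% and 83.6%) with 59.

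Single heifers were close to the level on which the bins were chosen, a mean of these same heifers. In the 21099 methylated dense bins with at least 20 calls in every heifer, all 6 heifers were at 70% or more in 17575 (83.3%), and 155 had a heifer below 50%. The median SD over heifers was 4.45 percentage points. A median heifer had 73 calls in a bin, which gives a Wilson 95% confidence interval of 7.20 points to either side at the median. Such intervals cover counting error only, because PCR copies of a molecule are not independent.

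The mean level that chose a bin could come from uniform or from mixed positions, so single positions are described as well. Of the 1815645 positions in methylated dense bins, 355363 had at least 10 reads pooled over heifers, and of these 81.0% were at 80% or more and 0.526% were at 20% or less. A row of 5 or more consecutive such positions at 20% or less was found in 5 of the 22824 bins. In dense bins below 20%, 88.0% of 31996 such positions were at 20% or less. The position levels entered the rule, so these shares are a description.

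The 5 methylated dense bins with the most positions also had high levels within the class, although only 150 of the 395 dense bins with 160 or more positions were methylated. They held 234 to 240 positions in 111 to 130 groups of directly neighbouring positions and lay at 94.1% to 96.9%. They were chr12:34479000-34479999, the adjoining bins chr18:62378000-62378999 and chr18:62379000-62379999, chr18:62477000-62477999 in the same region, and chr25:39013000-39013999. In chr18:62477000-62477999 the percent of methylated calls was 95.5, 94.8 and 94.5 in IUCL-H heifers and 93.1, 95.7 and 94.8 in IUHT-H heifers. All 6 heifers lay within 3 points of each other there. In liver, 6 calves had at least 20 calls in that bin, and 5 of them were above 96% while IUCL-B calf 2 was at 79.3%.

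Methylated dense bins were gathered toward one end of the chromosomes. Cattle autosomes are acrocentric, with the centromere placed at low coordinates, so that the high coordinates are the far end of the long arm. The last 5 Mb of the 29 chromosomes, counted back from the last position read, held 12072 methylated dense bins, or 52.9% of them. The same stretch held 22.2% of the other dense bins and 6.31% of all bins read. The last 2 Mb alone held 33.5% of the methylated dense bins, against 14.3% and 2.54%. At the low-coordinate end the gathering was weaker, with 3.93% of methylated dense bins and 2.24% of all bins in the first 2 Mb. Per 1000 bins read, 18.2 were methylated dense bins in the first 2 Mb and 137 in the last 2 Mb. Of the dense bins in the first 2 Mb, 63.0% were methylated.

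The pattern was found along every chromosome but not to the same degree. Methylated dense bins per bin read were more frequent in the last 5 Mb than elsewhere on 29 of 29 chromosomes. On chromosome 11, 1057 of 1422 (74.3%) lay in the last 5 Mb, and on chromosome 12 the share was 81.7% of 765. On chromosomes 7 and 14 it was only 9.87% and 8.13%. Among dense bins, the methylated share was higher in the last 5 Mb than elsewhere on 28 chromosomes. Chromosome 18 was the exception, with 53.4% in its last 5 Mb and 56.0% elsewhere. Over all chromosomes, 75.3% of dense bins in the last 5 Mb were methylated, and the share was 37.3% at more than 20 Mb from the end.

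**Figure D2:**
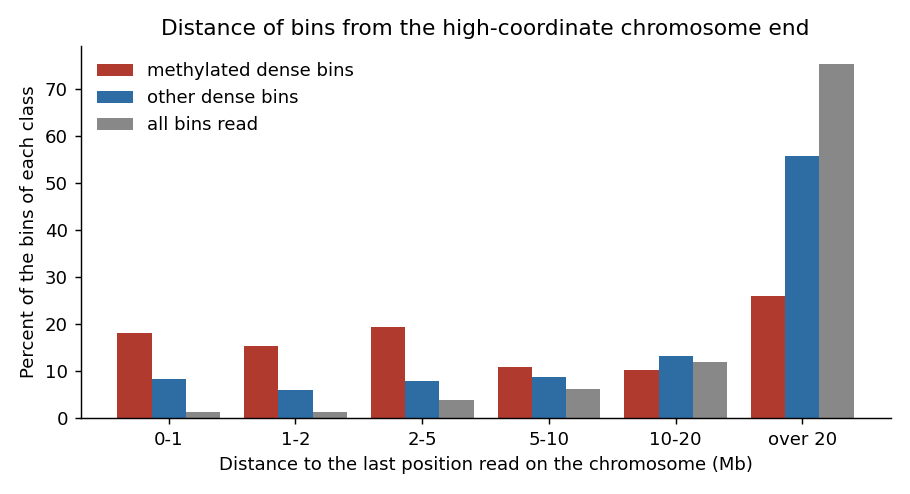
Percent of the bins of each class (vertical axis) by distance in Mb to the last position read on their chromosome (horizontal axis, classes of unequal width), for methylated dense bins (red), other dense bins (blue) and all bins read (grey). In the last 1 Mb lie 18.1% of methylated dense bins, 8.25% of other dense bins and 1.26% of all bins, whereas beyond 20 Mb the shares are 26.02%, 55.7% and 75.4%.

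Few megabases held most of these regions. Methylated dense bins occurred in 1380 of the 2529 megabases read, and 70 megabases (2.77%) held 50% of them. The fullest were megabase 74 of chromosome 17 (chr17:74000000-74999999) with 412 and megabase 41 of chromosome 25 (chr25:41000000-41999999) with 373. Each of the 10 fullest megabases began within 3.31 Mb of the end of its chromosome. The bins in the last 5 Mb held a median of 76 positions, against 72 elsewhere. Their median level was 86.5%, against 88.2% elsewhere, and the median number of reads per position was 5.78 and 5.94.

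The bins also lay side by side. Of the 22824, 52.1% adjoined another methylated dense bin and 82.5% had another within 10 kb, whereas 132 (0.578%) adjoined a dense bin below 20%. They formed 15033 runs, of which 434 were 5 bins or longer and 62 were 10 bins or longer. Less dense bins beside them, counted where at least 10 positions were read, had a median level of 84.1%, compared with 26.2% beside dense bins below 20%. The median of all less dense bins was 80%.

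The longest run covered 23 bins at chr6:109815000-109837999 with 2190 positions, and its bins ranged from 79.9% to 96.0% in mammary gland. The percent of methylated calls over the run was 91.4, 90.9 and 90.7 in IUCL-H heifers and 88.5, 90.3 and 91.3 in IUHT-H heifers. In liver it was 98.6, 99.5, 99.7, 94.0 and 93.6 in IUCL-B calves 1 to 5 and 98.8, 99.9, 100 and 100 in IUHT-B calves 2 to 5. The 2 wide liver libraries gave the lowest of the liver values, and all 9 calves were above all 6 heifers.

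The next longest runs lay far from the high-coordinate end, and the first of them lay near the low-coordinate end. They were 22 bins at chr25:1631000-1652999 and 19 bins at chr18:11652000-11670999, with mean bin levels of 88.8% and 88.5%. Over the first of these the heifers ranged from 89.6% to 91.1% and the calves from 76.9% (IUCL-B calf 3) to 100%. Over the second the heifers ranged from 88.8% to 91.0%. Calves there spread more widely, from 59.3% in IUCL-B calf 3 and 77.2% in IUCL-B calf 2 to 100% in IUHT-B calf 4.

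Read depth rose with methylation. The median methylated dense bin had 5.85 reads per position pooled over heifers, compared with 2.87 in other dense bins, 2.53 in dense bins below 20% and 3.38 in less dense bins. Within single heifers, over the positions each had read, the medians were 1.83 to 2.11 in methylated and 1.35 to 1.52 in other dense bins. The ratio of the 2 medians was 1.42, 1.39 and 1.39 in IUCL-H and 1.23, 1.44 and 1.28 in IUHT-H, so methylated bins were deeper in 6 of 6 heifers. A bin read more deeply can also show more of its positions, and the part of depth in the density rule was not tested.

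**Figure D3:**
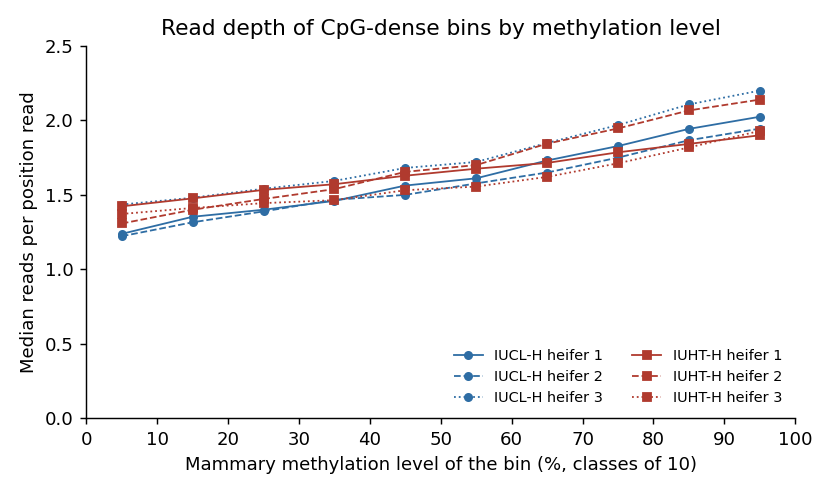
Median reads per position read in CpG-dense bins (vertical axis) by mammary methylation level (horizontal axis, classes of 10 points), 1 line for each heifer (IUCL-H blue circles, IUHT-H red squares). Each line is higher in the class from 90% to 100% (1.90 to 2.20 reads) than in the class from 0% to 10% (1.22 to 1.43 reads).

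Very deep bins, as collapsed copies of a repeat would give, were few but carried many calls. More than 20 reads per position were found in 96 methylated dense bins (0.421%) and in 47 of the other dense bins (0.263%). More than 50 were found in 44, which held 6.64% of all calls in the class and of which 12 lay in the last 5 Mb. These 44 bins were also deep in liver, with a median of 92.0 reads per position against 13.4 in the remaining bins. Their levels ran from 70.4% to 92.9%. Repeat annotation of this genome build was not used here, so whether they are repeats was not tested.

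The deepest bin was chr9:65873000-65873999 with 1005.15 reads per position, next to chr9:65872000-65872999 with 798, and the third was chr28:1894000-1894999 with 766. In the first, the percent of methylated calls was 86.5, 84.3 and 84.7 in IUCL-H heifers, each from at least 11284 calls, and 83.1, 86.3 and 85.9 in IUHT-H heifers. Calves stood at 90.8, 91.6, 87.4, 87.5 and 87.8 (IUCL-B calves 1 to 5) and 84.2, 87.5, 86.4 and 86.9 (IUHT-B calves 2 to 5). All 15 animals lay between 83.1% and 91.6%, and the groups overlapped in mammary gland and in liver.

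Evenly spaced CpGs, as a tandem array of short units would give, were rare. For each distance from 4 to 300 bases, the share of a bin's positions with another position at exactly that distance downstream was computed. The best share reached 60% in 2 of the 22824 methylated dense bins and in 2 of the 17886 others. Longer units would not be seen by this measure.

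Methylated dense bins of the mammary gland were as a rule methylated in liver also. At least 10 positions had been read in any of the 9 calves in 22706 of the bins, and their median liver level was 91.3%, against 10% in 17717 other dense bins. Levels of 70% or more were found in 92.3% and levels below 50% in 496 bins (2.18%). The liver level was above the mammary level in 67.4% of bins, with a median difference of 3.26 points. Other dense bins were also higher in liver, by a median of 1.62 points, so the direction was not particular to methylated dense bins. Mean levels of single animals over methylated dense bins were 85.5% to 87.4% in heifers and 87.3% to 88.7% in calves. Without IUCL-B calves 4 and 5 only 8542 methylated dense bins had 10 liver positions. Their median was 91.3% again, 92.3% were at 70% or more, 1.66% were below 50% and 64.5% were above the mammary level.

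The liver level followed the mammary level within the class. It had a median of 85.0% where the mammary level was 70% to 80%, 90.4% where it was 80% to 90% and 94.4% where it was 90% or above. Liver levels below 50% were found in 5.86%, 1.82% and 0.518% of these bins. Without IUCL-B calves 4 and 5 the medians were 85.7%, 90.8% and 94.1%, and the shares below 50% were 4.90%, 1.35% and 0.363%. In the last 5 Mb of chromosomes 1.70% of bins were below 50% in liver, and elsewhere 2.73% were.

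**Figure D4:**
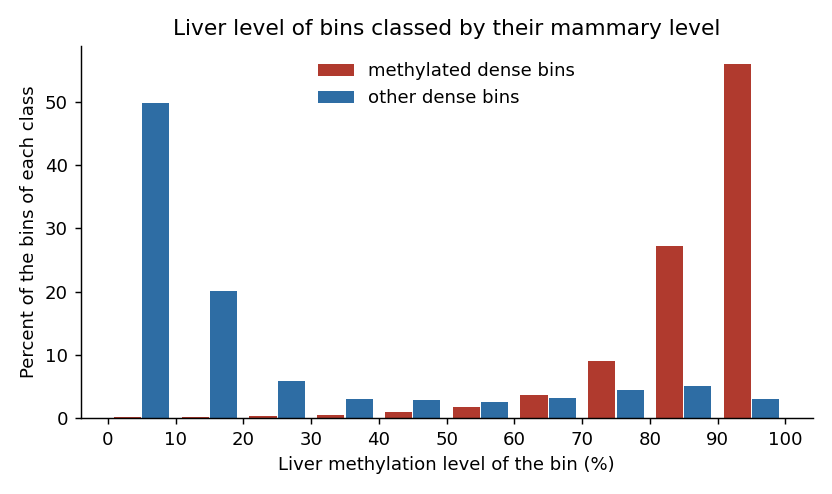
Percent of the bins of each class (vertical axis) by liver methylation level in percent (horizontal axis, classes of 10 points), for bins that were methylated dense bins (red) or other dense bins (blue) in the mammary gland. The class from 90% to 100% holds 12728 of 22706 methylated dense bins, and the class from 0% to 10% holds 8832 of 17717 other dense bins.

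In a single calf most bins were near full or near no methylation. Of the methylated dense bins with at least 20 calls in an animal, 61.0% (IUCL-B calf 5) to 82.4% (IUHT-B calves 3 and 5) were at 90% or more or at 10% or less in a calf. In the 7868 bins with 20 calls in at least 5 calves, the median SD over calves was 11.8 points. A calf had 3.71% to 8.19% of its bins below 50%. The rule required a high mean in the heifers and not in the calves, so the heifers are not set beside these values. The calf libraries read fewer positions than the heifer libraries, and the part of this in the spread was not tested.

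Some bins were nevertheless low in liver across animals. In 98 of the 7868 bins the liver level was below 50%, and in 8 of them, which were picked out after their values were seen, every calf with 20 calls was below 50%. Without IUCL-B calves 4 and 5, 1569 bins had 20 calls in at least 5 calves, 10 of them were below 50% in liver, and 1 was below 50% in every such calf. With all calves kept, the lowest was chr5:104225000-104225999, a bin of 122 positions. Heifers had 81.8%, 72.4% and 79.5% methylated calls there in IUCL-H and 65.4%, 70% and 75.2% in IUHT-H. IUCL-B calves 2 and 4 and IUHT-B calves 2 and 3 had no methylated call among 126, 78, 76 and 70. If calls were independent, a count of 0 would allow up to 3 calls, or 2.38%, 3.85%, 3.95% and 4.29%. Because PCR copies are not independent, the true limits may be wider. IUCL-B calf 5 stood at 4.15%, and IUCL-B calf 1 had 50% from only 12 calls. The choice of the bin fixed this separation of calves from heifers. The low calves came from both maternal treatments.

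The other 7 bins of this kind had heifer values from 62.1% to 95.5% and calf values from 0% to 48.8%. They lay on chromosomes 2, 6, 11, 15, 16 and 19, among them chr2:94540000-94540999, where heifers were at 84.6% or more and calves at 48.8% or less. Among the bins with 20 calls in at least 5 calves, the 2 others named for the lowest liver level were split between calves. At chr13:74373000-74373999 IUCL-B calf 4 had 100% from 28 calls, IUHT-B calf 2 had 34.2% and IUCL-B calves 1, 2 and 5 and IUHT-B calf 3 had 0% to 1.67%. At chr18:62767000-62767999 IUCL-B calf 1 and IUHT-B calf 5 had 100%, and IUHT-B calf 3 had no methylated call among 273. At the other extreme, chr1:147826000-147826999, chr1:155093000-155093999 and chr2:106493000-106493999 were at 100% in every calf that read them. They were tied at the highest possible level, which other bins may share.

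Between the maternal treatments the mean level of these bins, taken over bins with at least 5 calls in the animal, differed by less than the larger SD of the animals in both tissues. In the mammary gland the mean over bins was 86.9%, 86.4% and 86.4% in IUCL-H heifers and 85.5%, 86.5% and 87.4% in IUHT-H heifers. The group means were 86.6% ± 0.280 (SD, n = 3) and 86.5% ± 0.977 (SD, n = 3). In liver it was 87.3%, 87.7%, 88.7%, 88.2% and 87.9% in IUCL-B calves 1 to 5 and 87.8%, 88.2%, 88.2% and 88.2% in IUHT-B calves 2 to 5, and the means were 87.9% ± 0.548 (SD, n = 5) for IUCL-B and 88.1% ± 0.219 (SD, n = 4) for IUHT-B. IUHT minus IUCL came to -0.101 points in mammary gland and to 0.165 points in liver, or 0.245 points without IUCL-B calves 4 and 5. The groups overlapped in both tissues. The liver means rest on 10576 to 22750 bins in IUCL-B calves and on 3948 to 13430 bins in IUHT-B calves, so calves were not compared over the same bins. The sign of each difference turned with the processing: in mammary gland it was 0.388 points without IUHT-H heifer 1, 0.0584 points without IUCL-H heifer 1 and 0.307 points at positions read in every heifer. In liver it was -0.124 points from pooled calls, -0.0531 points over positions and -0.00758 points without IUCL-B calf 1. It was larger, 0.351 points, without IUCL-B calf 3 and 0.786 points in bins with 20 calls in every calf. The last value rests on 97 bins only, and the SDs given here are not for those bins. Other dense bins differed by -2.24 points in mammary gland and by 4.53 points in liver, or 0.582 points without IUCL-B calves 4 and 5. The wide libraries of IUCL-B calves 4 and 5 had the lowest of those liver levels (25.5% and 22.6%).

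**Figure D5:**
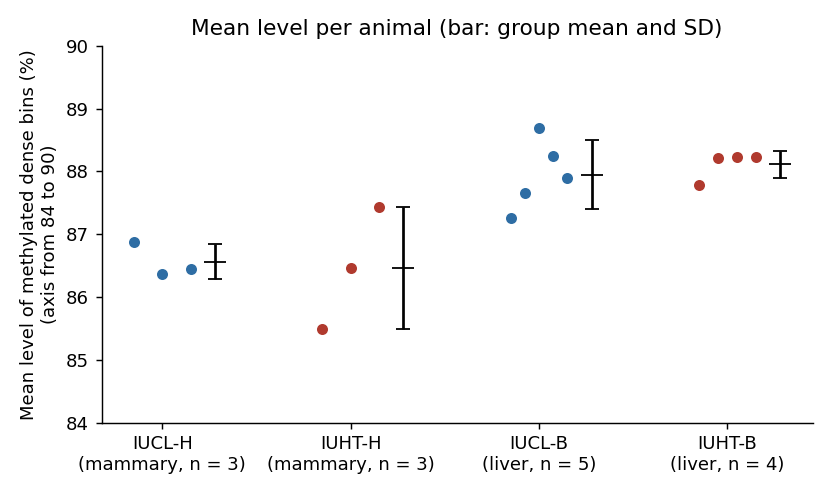
Mean methylation level in percent of the methylated dense bins in each animal (vertical axis from 84 to 90), with the mean and SD of each group as a bar beside its points. IUHT-H heifers lie from 85.5% to 87.4%, around the IUCL-H heifers (86.4% to 86.9%), and IUHT-B calves (87.8% to 88.2%) lie within the range of IUCL-B calves (87.3% to 88.7%). The set of bins behind a mean differs between calves.

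For single bins in the mammary gland, calls summed over a bin were compared by logistic regression with an overdispersion term in 80673 bins of at least 10 positions and 20 calls in every heifer. A bin was called at a difference of 15 points and a q-value of 0.2 or less. No bin was called in any class (0% of all bins), and 321 of the 21099 methylated dense bins tested had an unadjusted p under 0.05, a share of 1.52% against 1.61% of all bins. With 3 animals a group this test also made no call on simulated differences, so its count of 0 sets no limit on the size of differences. By limma no methylated dense bin was called either (0%, against 0% of all bins). That test recovered 6%, 34%, 62% and 90% of simulated differences of 20, 30, 40 and 50 points. All of these were lower levels in IUHT-H, with a spread between animals that was set for the simulation. The count of 0 by limma therefore says little about differences near the threshold. By limma 661 had an unadjusted p under 0.05 (3.13%, against 4.70% of all bins). Without the overdispersion term 126 were called (0.597%, against 1.86% of all bins).

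The groups did not overlap in 1030 methylated dense bins where IUHT-H was higher (4.88%, against 4.87% of all bins) and in 1039 where it was lower (4.92%, against 5.12%). The median difference was -0.0294 points over methylated dense bins and -0.107 points over all bins. A difference of 15 points or more was found in 138 methylated dense bins (0.654%), compared with 2.32% of all bins tested. The rule chose bins with many positions and high levels, and the part of this in the smaller share was not tested.

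The methylated dense bin with the smallest p was chr26:49092000-49092999. It had 60.6%, 68.0% and 48.6% methylated calls in IUCL-H and 90.9%, 94.3% and 87.8% in IUHT-H, from 25 to 49 calls each. Every IUCL-H heifer was below the 70% of the rule there, so the bin was a member through its IUHT-H values. The groups were apart by 31.9 points on average, with an unadjusted p of 0.0049 and a q-value of 1. The next were chr7:19079000-19079999, with a difference of -15.5 points (92.2% to 96.4% in IUCL-H, 72.6% to 86.4% in IUHT-H), and chr29:50413000-50413999, with a difference of -18.5 points (87.8% to 94.6% in IUCL-H, 69.8% to 75.4% in IUHT-H). The groups did not overlap in these bins either, and both had a q-value of 1. Without the overdispersion term all 3 named bins were called, with q-values of 1.475e-05, 3.829e-04 and 7.569e-04 in the order given.

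In liver only 805 bins had 20 calls in every calf, and 97 of them were methylated dense bins. Of the 97, 16 belonged to the 44 very deep bins, and the other 22727 methylated dense bins could not be tested in this way. 3 were called (3.09%, against 4.22% of all bins tested), each with a higher level in IUHT-B, while none was called lower. Of all bins tested 2.24% were called higher and 1.99% lower. The direction of the calls was not stable, since 8 of 15 were higher without overdispersion, 39 of 73 with 20 calls in 3 calves of each group, 5 of 10 without IUHT-B calf 2 or calf 4, 2 of 4 without IUCL-B calf 4 and 2 of 6 without IUHT-B calf 5. More were higher with at least 10 calls (17 of 25), with no minimum difference (12 of 15) and without IUCL-B calf 2 (4 of 4), IUCL-B calf 3 (5 of 5) or IUHT-B calf 3 (4 of 5). With any difference, 15 of the 97 reached the q-value (15.5%, against 9.07%). The groups did not overlap in 4 bins with IUHT-B higher (4.12%, against 1.99%) and in 1 with IUHT-B lower (1.03%, against 1.61%). The shares with an unadjusted p under 0.05 were 24.7% and 16.9%. Without IUCL-B calves 4 and 5, 6 of 100 were called (6.00%, against 3.36% of all bins), 4 of them higher in IUHT-B.

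The called bins differed in how cleanly the groups separated. At chr16:49442000-49442999 IUCL-B calves 1 to 5 had 89.2%, 54.4%, 31.5%, 87.2% and 67.9%, and IUHT-B calves 2 to 5 had 100%, 100%, 100% and 99.9%. The groups did not overlap, the difference was 33.9 points and the q-value was 0.0616. This bin was also called by limma (q-value of 0.0468) and without IUCL-B calves 4 and 5, but not without IUHT-B calf 5 (q-value of 0.343). In heifers the same bin showed 74.6% to 86.4% in IUCL-H and 76.2% to 92.3% in IUHT-H.

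At chr25:32364000-32364999 IUCL-B calves 1 to 5 had 93.9%, 29.6%, 68.2%, 28.5% and 34.0%, and IUHT-B calves 2 to 5 had 95.1%, 99.9%, 74.7% and 100%. IUCL-B calf 1 lay among the IUHT-B calves, the difference was 41.6 points and the q-value was 0.162. At chr6:108872000-108872999 IUCL-B calves had 71.8%, 88.6%, 97.5%, 79.1% and 66.5%, and IUHT-B calves had 88.2%, 100%, 100% and 100%. The groups overlapped, the difference was 16.4 points and the q-value was 0.177. Neither bin was called by limma (q-value of 0.271 for each) or without IUCL-B calves 4 and 5, and the first was not called without very deep positions, where the difference was 25.7 points. The call at chr25:32364000-32364999 was also lost when IUCL-B calf 3, 4 or 5 or IUHT-B calf 3 or 5 was left out (q-values of 0.210, 0.2502, 0.388, 0.283 and 0.298). That at chr6:108872000-108872999 was lost without IUCL-B calf 1, 4 or 5 or IUHT-B calf 3, 4 or 5 (q-values of 0.345, 0.2502, 0.280, 0.270, 0.209 and 0.312). In heifers, chr25:32364000-32364999 had 74.9%, 75.8% and 46.6% in IUCL-H and 40%, 73.5% and 47.1% in IUHT-H, and chr6:108872000-108872999 had 86.5%, 89.1% and 92.0% in IUCL-H and 95.2%, 86.7% and 88.2% in IUHT-H. These are percents of summed calls, whereas chr25:32364000-32364999 met the rule by its mean over positions, 77.8%.

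Single cytosines were tested where all animals of the tissue had over 10 reads, by logistic regression without an overdispersion term. Those at which the pooled reads of the groups were 15 or more points apart, at a q-value of 0.2 or less, were called differentially methylated cytosines (DMCs). Few positions in methylated dense bins reached this depth in the mammary gland, 880 of 18486 in 95 bins. Of these, 13 were DMCs (1.48%, against 1.54% of all positions tested), in 10 bins. 8 were higher in IUHT-H (0.909%, against 0.427% of all) and 5 were lower (0.568%, against 1.11%). The 10 bins were deep, with 13.5 to 1005.15 heifer reads per position, against a median of 5.85 over methylated dense bins. The largest difference of pooled reads was 22.9 points at chr14:583223, with 54.5% to 87.0% in IUCL-H and 91.3% to 96.3% in IUHT-H, in a bin of 250.03 reads per position. With an overdispersion term or by limma, none of the 13 was called, and of all positions tested 0% and 0.00541% were.

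In liver 38 of 900 positions tested lay in methylated dense bins, and 8 were DMCs (21.1%, against 33.1% of all positions tested), with 4 higher in IUHT-B (10.5%, against 14.2%) and 4 lower (10.5%, against 18.9%). These 8 lay in 5 bins with 14.1 to 1005.15 heifer reads per position. In 3 of these bins 2 positions were DMCs. Both were lower in IUHT-B on chromosome 9 (-21.2 points at chr9:65873529 and -25.6 points at chr9:65873970) and both were higher on chromosome 17 (33.8 points at chr17:18677184 and 34.7 points at chr17:18677398). On chromosome 14 they went in opposite directions: chr14:583437 was higher in IUHT-B (77.2% to 95.8% against 100% in every IUHT-B calf), and chr14:583431 was lower (82.5% to 99.4% against 35.5% to 99.3%). At chr17:18677184 IUCL-B calves had 15.6% to 88.6% and IUHT-B calves 99.3% to 100%. This position and chr14:583437 were also called with an overdispersion term (q-values of 0.184 and 0.0165). The groups overlapped at chr9:65873529 (54.5% to 100% in IUHT-B, 79.7% to 100% in IUCL-B). They also overlapped at chr9:65873970 (60.9% to 96.0%, 72.2% to 100%) and at chr17:18677398 (44.8% to 95.7%, 10.2% to 65.1%). Without IUCL-B calves 4 and 5, 13 of 46 positions in methylated dense bins were DMCs (28.3%, against 37.4% of all positions).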

How the data were processed

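RRBS libraries of 6 heifer mammary glands and 9 calf livers were analysed. DNA was cut with MspI and TaqαI, and fragments were bisulfite converted and read from 1 end. The submitters' processing notes name FastQC, Trim Galore 0.4.4, Bismark 0.17.0 and the build UMD3.1, to which all coordinates refer. The authors deposited, for every cytosine read, counts of methylated and unmethylated calls and the percent methylated, with no coverage minimum applied. In every line the percent equalled the value from the counts to within 1e-06 percentage points. The members, the lists and the rule for named regions were chosen with earlier results of these data known.

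Bins, levels, runs and depths were computed in Python 3.11.15 (numpy 2.4.6, scipy 1.17.1). Level means used bins with at least 5 calls in the animal. Bin tests were quasi-binomial logistic regressions on maternal treatment (dispersion not below 1, F test), and positions were tested by likelihood-ratio tests, both with Benjamini-Hochberg adjustment within a tissue. The alternative was limma 3.58.1 in R 4.3.3 on log2((methylated + 0.5)/(unmethylated + 0.5)). The tests were tried on simulated counts drawn on the real bins. No test was made of measures that chose the bins. Named bins were the densest, deepest, longest runs, those with extreme liver levels, those at the thresholds, and those called or with the smallest p. An annotation and genome of this build were not used here, so genes, markers and sequences were not analysed.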

Additional observations from a re-analysis of the deposited data

Results flagged for a closer look

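Among 30 comparisons of calves within a group, 7 values lay far from the others. The usual chance rate of 1 in 20 groups cannot be read here, since some of these bins were named for calls or extreme levels and many of their values lie at 100%. IUHT-B calf 2 gave 5 of them. Its mean level over methylated dense bins was 87.8%, while the other IUHT-B calves rounded to 88.2% each, and over the other dense bins it was 31.1%, against 35.3% to 36.0%. At chr6:108872000-108872999 it had 88.2% where the others had 100%. Over the run at chr6:109815000-109837999 it had 98.8%, against 99.9% to 100%, and over the run at chr18:11652000-11670999 it had 91.7%, against 99.6% to 100%. IUHT-B calf 2 also had the most positions of its group (1037061, against 307023 to 537447), and the part of this in its values was not tested.

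At chr13:74373000-74373999 IUCL-B calf 4 had 100% where the other IUCL-B calves with 20 calls had 0% to 1.67%. At chr16:49442000-49442999 IUHT-B calf 5 had 99.9% from 2202 calls where the others had 100% from 45 to 155 calls.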

How the results depend on the processing

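The number of methylated dense bins followed the rule and the depth. It was 36983 with at least 50 positions, 8556 with at least 80 and 5424 when positions needed 2 reads, and it ranged from 18259 to 21299 when 1 heifer was left out, since a union over fewer libraries holds fewer positions. The share in the last 5 Mb, whose alternatives were chosen after seeing the data, stayed between 47.9% and 59.1%, and between 53.5% and 54.8% without 1 heifer. The median liver level was 93.1% from pooled calls, 92.3% from positions with more than 10 reads and 91.2% to 91.7% without 1 calf. The mean difference in mammary gland ranged from -0.590 to 0.388 points (the highest without IUHT-H heifer 1) and was 0.307 points at positions read in every heifer. That in liver ranged from -0.00758 to 0.351 points without 1 calf, and was -0.124 from pooled calls, -0.0531 over positions and 0.786 in bins with 20 calls in every calf.

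Calls in liver bins were unstable. They were 15 of 97 without overdispersion (15.5%, against 21.6% of all bins), 1 of 97 by limma (1.03%, 0.497%), 25 of 237 with at least 10 calls (10.5%, 8.73%), 0 of 29 with at least 50 calls (0%, 0.286%), 0 at a q-value of 0.05 (0%, 0.248%), 15 with no minimum difference (15.5%, 9.07%), 73 of 1438 with 20 calls in 3 calves of each group (5.08%, 5.09%) and 6 of 100 without IUCL-B calves 4 and 5 (6.00%, 3.36%). Chosen after seeing the data, 20 calls in 3 calves of each group without overdispersion gave 373 (25.9%, 33.5%). Without 1 calf the number ranged from 1 of 96 (1.04%, 2.65%; IUCL-B calf 5) to 10 of 113 (8.85%, 8.43%; IUHT-B calf 2) and 10 of 142 (7.04%, 6.18%; IUHT-B calf 4), with 5 of 131 without IUCL-B calf 3 (3.82%, 3.33%), 5 of 151 without IUHT-B calf 3 (3.31%, 2.84%) and 6 of 246 without IUHT-B calf 5 (2.44%, 2.94%). In mammary bins 126 were called without overdispersion (0.597%, 1.86%) and 0 without any 1 heifer.

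DMCs in mammary gland were 0 with overdispersion (0%, against 0% of all positions), 0 by limma (0%, 0.00541%), 24 of 1982 above 5 reads (1.21%, 1.30%), 7 of 524 above 20 reads (1.34%, 1.19%), 0 at 25 points (0%, 0.184%), 6 at a q-value of 0.05 (0.682%, 0.563%) and 2 of 154 without the deepest positions (1.30%, 0.467%), and from 11 of 887 (1.24%, 1.72%) to 19 of 895 (2.12%, 2.40%) without 1 heifer. In liver they were 2 of 38 with overdispersion (5.26%, 6.33%), 2 by limma (5.26%, 0.333%), 4 at 25 points (10.5%, 17.4%), 2 of 3 without the deepest positions (66.7%, 38.5%) and 13 of 46 without IUCL-B calves 4 and 5 (28.3%, 37.4%). Without 1 calf they ranged from 7 of 41 (17.1%, 34.5%) without IUCL-B calf 2 to 17 of 62 (27.4%, 34.7%) without IUHT-B calf 5. The causes were not tested.

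Calves 2 to 5 share numbers between groups, and the labels do not say whether the numbers pair calves. Deviations of same-numbered calves correlated by -0.075 to 0.0678, and those of calves with different numbers by -0.0942 to 0.104. Correlations of so few calves cannot show whether the calves were paired. With the number as a replicate block, 3 of 107 liver bins (2.80%, 3.37%), of which 2 were higher in IUHT-B, and 8 liver DMCs (21.1%, 32.2%) were called, against 2 (1.87%, 2.41%) and 8 (21.1%, 33.1%) in the same 8 calves without the block. The bin chr6:108872000-108872999 was not called in these calves with the block (q-value of 0.377) or without it (q-value of 0.345). Of the methylated dense bins, 118 had too few liver positions to be given a level.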

Other observations

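Dense bins outside chromosomes 1 to 29 were held to the same thresholds. On the X chromosome 235 of 851 dense bins were methylated (27.6%), and the median level of all its dense bins was 53.8%. The methylated ones had a median liver level of 90.3% in 218 bins with 10 liver positions, although the calves were male and the heifers female. On sequences not placed on a chromosome 624 of 748 dense bins were methylated (83.4%), with a median level of 82.1% and a median of 9.05 reads per position, against 5.20 in the other dense bins there.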
